A study of Mus musculus with 8 samples.

Results

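The genes described here are those for S100a8, S100a9, Csf3r, Hdc, Trem1 and Retnlg, which are used as markers of neutrophils and of granulocytic myeloid cells. They were chosen by name, and 4 of the 6 (Csf3r, Hdc, Trem1 and S100a9) are among the 14133 genes of the deposited table. S100a8 and Retnlg are not analysed here. RNA sequencing was done on 8 subcutaneous tumours of CT26 cells, a cell line from a mouse colon carcinoma, carried by wild-type male mice of a strain that the labels spell BABL/C. Control mice received PBS (4 tumours) and treated mice received propranolol, a blocker of beta-adrenergic receptors (4 tumours), by daily intraperitoneal injection from a tumour volume of 70 to 100 mm3. The labels used here give neither age nor dose, and no label states that each numbered tumour came from its own mouse, so p-values measure only the spread between these samples. The design text speaks of duplicates but the titles give each group tumours numbered up to 4, and n here follows the titles. The whole tumour was sequenced, so tumour cells, stroma and immune cells share each library.

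Neutrophils are short-lived granulocytes that are made in the bone marrow under the growth factor G-CSF and enter inflamed tissue and tumours along chemokine gradients. Csf3r encodes the G-CSF receptor, which carries signals for survival and maturation in the neutrophil lineage and is also made by some monocytes. Trem1 encodes a surface receptor of neutrophils and monocytes that amplifies inflammatory signals through the adaptor DAP12, the product of Tyrobp. S100a9 encodes a calcium-binding protein that pairs with S100A8 to form calprotectin, an abundant protein of the neutrophil cytosol. Hdc encodes histidine decarboxylase, the enzyme that makes histamine, and is expressed in mast cells and basophils as well as in immature granulocytic cells.

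Csf3r lies on chromosome 4 from 125918343 to 125938233 (ENSMUSG00000028859), Hdc on chromosome 2 from 126435587 to 126461219 (ENSMUSG00000027360), Trem1 on chromosome 17 from 48539796 to 48553952 (ENSMUSG00000042265) and S100a9 on chromosome 3 from 90599939 to 90603028 (ENSMUSG00000056071), in the coordinates of the deposited table. The build named in the submitters' processing notes is GRCm39, and all 4 genes are annotated as protein-coding. The 250 bases before the annotated start are shown for Csf3r and Hdc, whose levels followed each other, and for Trem1, which did not follow them. They are RefSeq sequences in the older build GRCm38.p6, each 5′ to 3′ on the strand of its gene, from chr4:126024409-126024658 (plus strand), chr2:126618679-126618928 (minus strand) and chr17:48232489-48232738 (plus strand). Capitals mark the PU box GAGGAA, the core sequence bound by the myeloid transcription factor PU.1.
Csf3r: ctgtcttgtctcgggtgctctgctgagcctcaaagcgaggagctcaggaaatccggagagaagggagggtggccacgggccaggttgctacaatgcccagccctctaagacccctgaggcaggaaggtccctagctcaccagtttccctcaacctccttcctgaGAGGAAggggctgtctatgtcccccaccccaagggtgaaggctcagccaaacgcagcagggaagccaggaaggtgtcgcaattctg
Hdc: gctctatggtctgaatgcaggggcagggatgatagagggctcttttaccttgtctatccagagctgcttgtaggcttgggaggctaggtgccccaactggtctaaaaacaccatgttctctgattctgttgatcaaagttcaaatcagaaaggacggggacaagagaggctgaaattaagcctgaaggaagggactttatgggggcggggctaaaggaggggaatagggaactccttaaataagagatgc
Trem1: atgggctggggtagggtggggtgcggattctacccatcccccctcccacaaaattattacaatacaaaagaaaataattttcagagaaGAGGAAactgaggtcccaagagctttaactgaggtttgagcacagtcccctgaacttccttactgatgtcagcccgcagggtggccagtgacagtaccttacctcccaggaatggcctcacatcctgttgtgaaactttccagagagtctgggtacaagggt
The PU box was present once in the Csf3r window, ending 81 bases before the start, and once in the Trem1 window, ending 157 bases before it, and these letters are not in the Hdc window. Among 32851 windows of the same length, 23.3% held it on either strand, so its presence here is common among promoters. A C/EBP-type sequence (TTGCNNAA, 9.6% of windows), the hypoxia response core ACGTG (16.6%), the E-box CACGTG (6.0%, which contains that core) and the GATA-type sequence AGATAA (10%) were searched on both strands, and their letters are not in any of the 3 windows. The window of S100a9, not shown, held the C/EBP-type sequence (bases 236 to 229 before the start) and AGATAA (bases 30 to 25). The PU box was added to the search after a longer form of it, GAGGAAGT (2.4% of windows, and in none of the 3), had been looked for and these windows had been seen.

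Library totals lay between 15483409 and 17511937 counts. Control tumour 4 stood apart by its skeletal muscle transcripts (8 of 9 listed genes in the table), which summed to 801 CPM (counts scaled to library size) there and to between 1.84 and 21.9 CPM in the other control tumours, against 1.89 to 69.8 CPM in the propranolol tumours. Propranolol tumour 3 had the highest sum of hypoxia-induced genes, 2562 CPM, and the lowest sum of T cell markers, 7.76 CPM. For the labelled colon cancer cells, 5 of 10 listed epithelial genes are in the table. Krt20, a keratin of the intestinal epithelium, was at 44.0 to 157 CPM. The others did not exceed 20.2 CPM in any tumour, the level of Krt18 in propranolol tumour 3. Krt8 fell to 0.121 CPM in propranolol tumour 4. Epcam, Krt19, Vil1, Cdx1 and Cdx2 have no row and are not analysed here.

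The neutrophil label rests on few genes. Of 26 further neutrophil markers 15 are in the table, and of 17 granule and maturation genes 7 are. The most restricted markers, Ly6g and Cxcr2, and the granule genes Mpo, Elane, Camp, Ngp and Ltf have no row. Every gene of the table exceeds 1 CPM in at least 2 libraries, and a gene without a row is not analysed here. The cells that held the 4 transcripts were therefore not identified as neutrophils from these data.

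On a scale corrected for gene length, Csf3r was the most abundant of the 4, with 4.83 ± 2.83 FPKM (the deposited level scaled to gene length and library size; SD, n = 8 tumours), and it lay above each of the other genes in 8 of 8 tumours. S100a9 averaged 1.10 ± 0.809 FPKM, Trem1 0.612 ± 0.407 FPKM and Hdc 0.599 ± 0.364 FPKM (SD, n = 8). The order of these 3 changed from tumour to tumour, since S100a9 exceeded Trem1 in 6 of 8 tumours and Hdc exceeded Trem1 in 5 of 8. Within tumours the ratio of S100a9 to Trem1 ranged from 0.225 to 5.74 (median 1.61). That of Hdc to Trem1 ranged from 0.242 to 5.02 (median 1.41). No test of the order of these 3 genes was made.

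Propranolol and control tumours did not differ in any of these genes by more than the spread between tumours. On average Csf3r and Hdc were higher in propranolol tumours and Trem1 was lower, but for Csf3r and Hdc only propranolol tumours 1 and 4 lay above all control tumours and the other 2 lay inside or below the control range. Of the 4 genes, 3 passed the filter on low counts (Csf3r, Hdc and Trem1), and 0 of these 3 passed edgeR's quasi-likelihood test at a Benjamini-Hochberg adjusted p under 0.05, where 0% of the 14006 genes tested passed. At an unadjusted p under 0.05, edgeR gave 0 of the 3 and 1.95% of all genes (5.12% with the tumour number as a block). At the same level DESeq2, run without that filter, gave 0 of the 4 and 337 of the 14133 genes in the table. Fitted levels were higher in propranolol for 2 of the 3 and for 49.4% of all genes, and the median log2 fold change over all genes was -0.0022. For 0 of the 3 did all propranolol tumours lie above all control tumours (0.714% of all genes) or below them (0.914%). A log2 fold change of at least 0.7, a size chosen after the values were seen, was reached by 2 of the 3 and by 3.63% of all genes. That size lies just under the values of Csf3r and Hdc, so the 2 of 3 was fixed by the choice and is a description only.

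**Figure D1:**
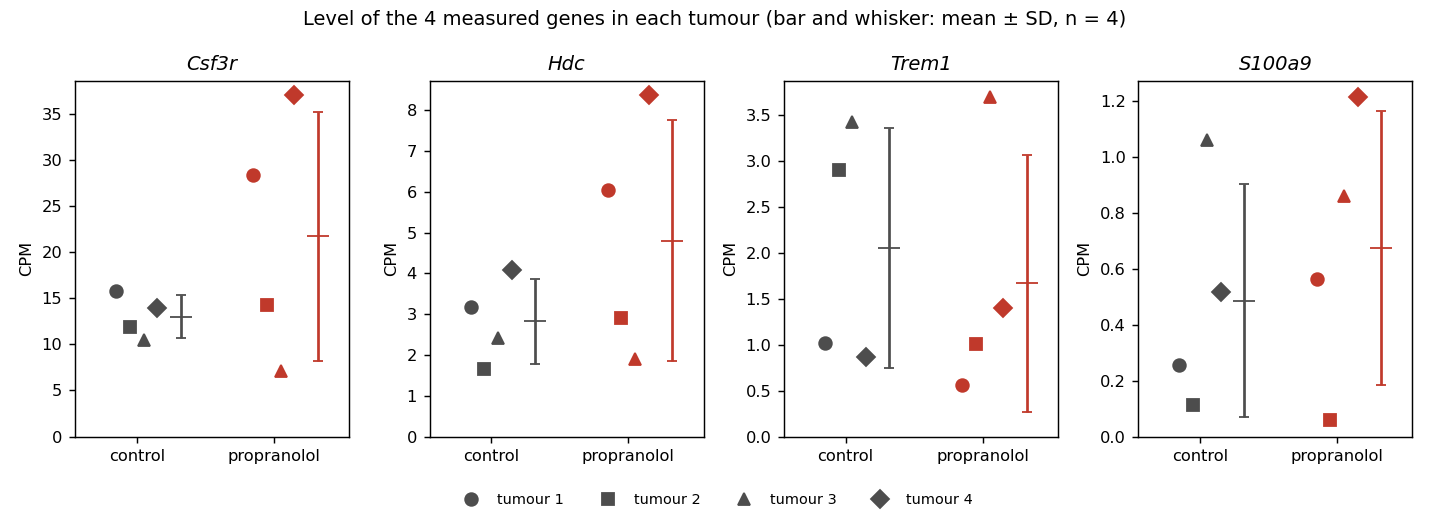
Level of Csf3r, Hdc, Trem1 and S100a9 in CPM (vertical axes, each starting at 0) in each control and propranolol tumour; the symbol gives the tumour number, and the bar and whisker are the mean ± SD of 4 tumours. Csf3r and Hdc are highest in propranolol tumours 4 and 1, Trem1 is highest in the tumours numbered 3 and in control tumour 2, and the groups overlap for all 4 genes.

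Csf3r, the receptor gene, had 15.8, 11.9, 10.5 and 13.97 CPM in control tumours 1 to 4. In propranolol tumours 1 to 4 it had 28.4, 14.3, 7.14 and 37.1 CPM. Propranolol tumours 1 and 4 lay above every control tumour, propranolol tumour 2 lay inside the control range and propranolol tumour 3 lay below it. The control mean was 13.03 ± 2.32 CPM and the propranolol mean 21.7 ± 13.5 CPM (SD, n = 4 each), a log2 fold change of 0.74 ± 0.45 (SE; edgeR, adjusted p = 0.999). The exact two-sided permutation test of the mean log2 CPM gave p = 0.371, where 4 against 4 tumours allow no p below 0.0286. Without propranolol tumour 4 the log2 fold change was 0.35. Without propranolol tumour 3 it was 1.03 (edgeR, adjusted p = 0.641), past an unadjusted p of 0.05, in a fit where 7.23% of all genes had an unadjusted p under 0.05. In a bulk tumour, a different number of cells that express a gene and a different level of its RNA per cell cannot be told apart.

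The propranolol tumours differed among themselves in Csf3r far more than the control tumours did. The SD of its log2 CPM was 1.06 in propranolol and 0.256 in control tumours, a ratio of 4.13. Over all genes tested the median ratio was 1.15, and 19.0% of genes had a ratio of at least 2. The ratio was 1.76 for Hdc, 1.10 for Trem1 and 1.27 for S100a9. No test of a difference in spread was made. Csf3r spanned 5.13-fold from its lowest to its highest tumour (with a prior count of 2), a wider range than that of 93.9% of genes tested, and the ranges of Hdc (4.81-fold), Trem1 (5.58-fold) and S100a9 (7.51-fold) also exceeded those of at least 93.2% of genes. Counting error widens the range of genes with few counts, such as Trem1 (10 to 60 counts) and S100a9 (1 to 20 counts, not itself among the genes tested).

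Hdc, the histamine-forming enzyme, had 3.18, 1.65, 2.42 and 4.08 CPM in control tumours 1 to 4. In propranolol tumours 1 to 4 it had 6.04, 2.90, 1.91 and 8.38 CPM. As with Csf3r, propranolol tumours 1 and 4 lay above every control tumour, while tumours 2 and 3 lay inside the control range. The control mean was 2.83 ± 1.04 CPM and the propranolol mean 4.81 ± 2.96 CPM (SD, n = 4 each). The log2 fold change was 0.76 ± 0.47 (SE; edgeR, adjusted p = 0.999), and the exact permutation p was 0.314. Without propranolol tumour 4 the log2 fold change was 0.35. Without propranolol tumour 3 it was 1.03 (edgeR, adjusted p = 0.676), past an unadjusted p of 0.05, in the same fit where 7.23% of all genes were.

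Trem1, the amplifying receptor, had 1.02, 2.90, 3.42 and 0.862 CPM in control tumours 1 to 4. In propranolol tumours 1 to 4 it had 0.565, 1.01, 3.69 and 1.40 CPM. Its high tumours were control 2, control 3 and propranolol 3, and the group ranges overlapped almost fully. The control mean was 2.05 ± 1.3 CPM and the propranolol mean 1.67 ± 1.39 CPM (SD, n = 4 each), a log2 fold change of -0.31 ± 0.64 (SE; edgeR, adjusted p = 0.999; exact permutation p = 0.686). The value moved with single tumours, to -1.05 without propranolol tumour 3 and, as the 1 change of sign, to 0.06 without control tumour 3.

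S100a9, the calprotectin chain, was counted 4, 2, 18 and 9 times in control tumours 1 to 4. In propranolol tumours 1 to 4 it was counted 10, 1, 14 and 20 times. The count of 20 has an exact 95% Poisson interval of 12.2 to 30.9 and the count of 1 one of 0.0253 to 5.57, which cover counting error only. These 2 intervals do not overlap, while the groups did, with a control mean of 0.487 ± 0.418 CPM and a propranolol mean of 0.675 ± 0.489 CPM (SD, n = 4 each). S100a9 did not pass the filter on low counts. In the fit without the filter its log2 fold change was 0.46 ± 0.80 (SE; edgeR, adjusted p = 0.999), and leaving out 1 tumour moved it between 0.02 (without propranolol tumour 4) and 1.16 (without control tumour 3).

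Csf3r and Hdc followed each other across the 8 tumours. Pearson's r of their log2 CPM was 0.92 (exact permutation p = 0.00181, adjusted p = 0.0109 over the 6 pairs of the 4 genes) and Spearman's rho was 0.86 (exact p = 0.0107, adjusted p = 0.0643). The exact permutation tests here treat the 8 tumours as exchangeable and take no account of the tumour number or the group. Without propranolol tumours 1 and 4, the pair farthest from the median of Csf3r, r was 0.66, so part of the relation rests on those tumours. Csf3r counts were 3.42 to 7.21 times Hdc counts in control and 3.74 to 4.94 times in propranolol tumours. All 4 propranolol tumours lay inside the control range of this ratio.

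Trem1 went the other way. Its r was -0.67 with Csf3r and its rho -0.67 (exact p = 0.0728 and 0.0831, adjusted p = 0.146 and 0.166). With Hdc its r was -0.69 and its rho -0.67 (exact p = 0.0621 and 0.0831, adjusted p = 0.146 and 0.166). Neither relation passed, and without propranolol tumours 1 and 4 the r values were -0.85 and -0.86. S100a9 had an r of 0.17 with Csf3r, 0.41 with Hdc and 0.23 with Trem1 (exact p = 0.693, 0.310 and 0.564; rho 0.05, 0.36 and 0.36), none past the threshold. Propranolol tumour 4 was high in S100a9, Csf3r and Hdc, whereas control tumour 3 was high in S100a9 and Trem1.

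**Figure D2:**
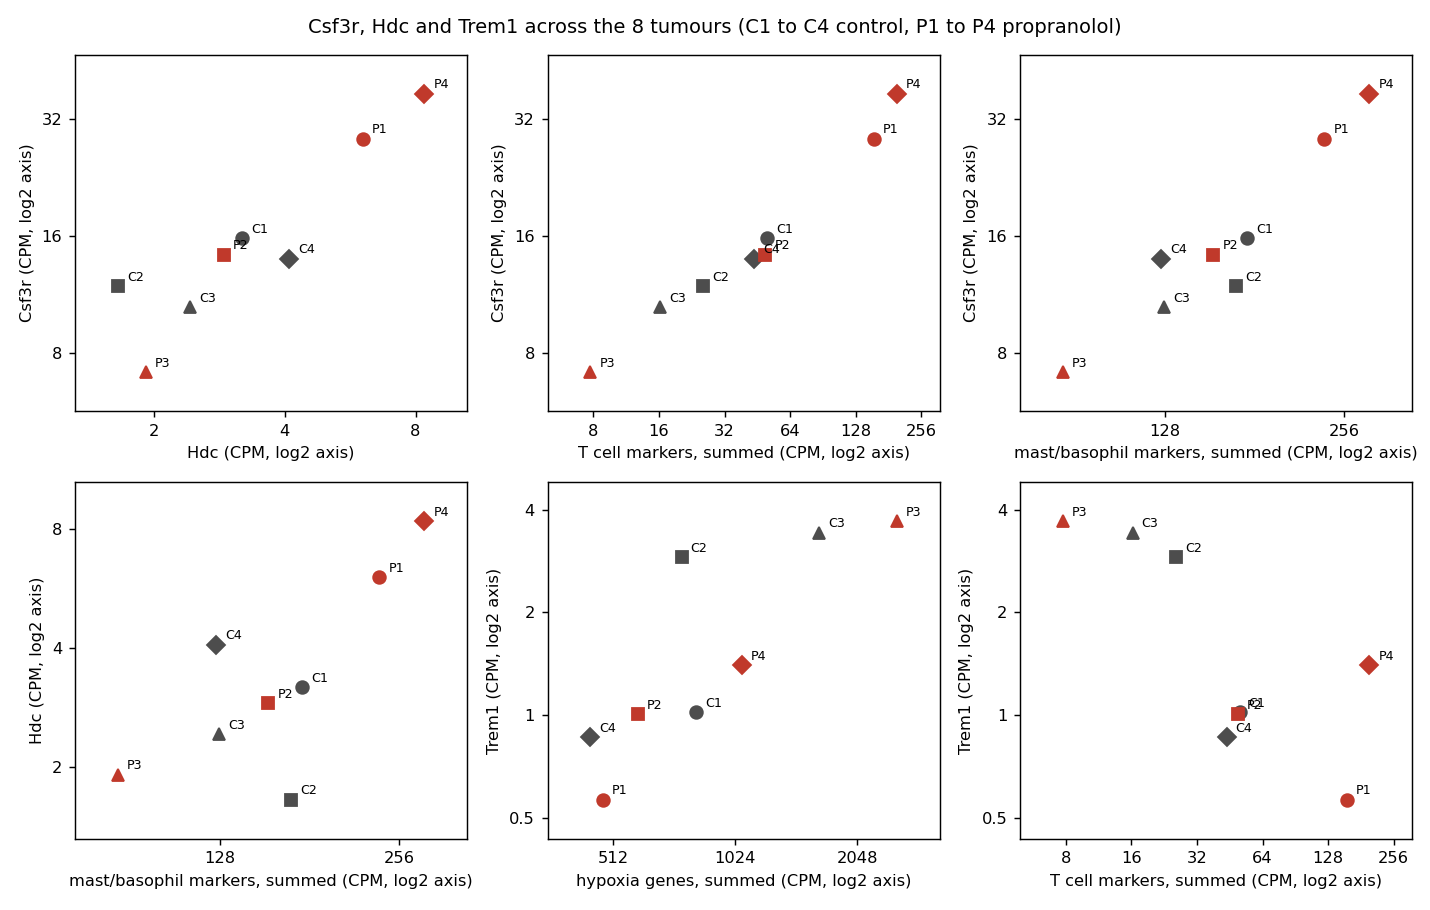
Each panel plots 2 levels in the 8 tumours, both in CPM on log2 axes, with control tumours in grey (C1 to C4) and propranolol tumours in red (P1 to P4); marker lists are summed over the genes in the table. Csf3r rises with Hdc and with the T cell and mast cell sums, and Trem1 is highest in P3 and C3, where the hypoxia sum is 2562 and 1645 CPM and the T cell sum 7.76 and 16.2 CPM.

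Markers of other cells moved with Csf3r. The relations in this paragraph were chosen after the values were seen, and p-values are adjusted over 24 relations (4 genes with 6 marker lists). All 10 listed T cell markers are in the table and all 10 were fitted higher with propranolol (49.4% of all genes), with a median log2 fold change of 1.63. In edgeR without the block 2 of the 10 were past an unadjusted p of 0.05 (1.95% of all genes), and 0 passed (0% of all genes). With the tumour number as a block 5.12% of all genes were past that level, and the 10 are not given in that fit. Their sum was 16.2 to 50.2 CPM in control and 7.76 to 198 CPM in propranolol tumours. Csf3r ranked the 8 tumours exactly as that sum did (rho 1, exact p = 4.96e-05, adjusted p = 0.00119). The r was 0.98 (exact p = 2.48e-05, the smallest that the permutations can give; adjusted p = 0.000595), and it was 0.99 without propranolol tumours 1 and 4. Hdc had an r of 0.90 and a rho of 0.86 with the T cell sum (exact p = 0.00370 and 0.0107, adjusted p = 0.0296 and 0.0643), and an r of 0.68 without those tumours. Whether T cell content had a part in the Csf3r and Hdc differences was not tested.

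Mast cells and basophils express Hdc as well. Of 12 mast cell and basophil markers 10 are in the table, with Mcpt8 and Prss34, both basophil proteases, without a row. With propranolol 9 of the 10 were fitted higher (49.4% of all genes) and 1 lower, with a median log2 fold change of 0.63, and 0 passed. Their sum was 126 to 176 CPM in control and 86.1 to 282 CPM in propranolol tumours. Of the 10, 7 were highest in propranolol tumour 4, against 20.0% of all genes, and 7, not all of them the same genes, were lowest in propranolol tumour 3, against 14.1% of all genes. Hdc had an r of 0.80 and a rho of 0.67 with Cpa3, a mast cell carboxypeptidase (exact p = 0.0195 and 0.0831, adjusted over 4 relations 0.0762 and 0.176). It had an r of 0.73 with the tryptase gene Tpsb2, 0.69 with the IgE receptor chain Fcer1a and 0.14 with Kit, the stem cell factor receptor (exact p = 0.0394, 0.0572 and 0.727; rho 0.60, 0.60 and 0.07). None of the 4 passed after adjustment, and without propranolol tumours 1 and 4 the 4 values of r were 0.28, -0.00041, 0.12 and -0.49. Csf3r had an r of 0.95 and a rho of 0.88 with the mast cell sum (exact p = 0.000645 and 0.00724, adjusted over 24 relations 0.00774 and 0.0579), and 0.86 without those tumours. For Hdc the r with the sum was 0.75 and the rho 0.60 (exact p = 0.0320 and 0.132, adjusted p = 0.110 and 0.393). The part of mast cells in the Hdc level was not tested.

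Control tumours 2 and 4 stood off the relation of Hdc with the mast cell sum, in opposite directions. Control tumour 2 had the lowest Hdc level of all tumours, 1.65 CPM, with a mast cell sum of 169 CPM. That sum was above the 154 CPM of propranolol tumour 2. Control tumour 4 had the third highest Hdc level, 4.08 CPM, and the highest of the control tumours. Its mast cell sum of 126 CPM was the lowest of the control tumours. Control tumour 4 is also the tumour with the muscle transcripts, and their part in its Hdc level was not tested.

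Trem1 was high where hypoxia-induced genes were high. The 10 of 11 listed hypoxia genes in the table summed to 449 to 1645 CPM in control and 481 to 2562 CPM in propranolol tumours, with Ndrg1, a stress-induced gene, the most abundant. With that sum Trem1 had an r of 0.84 and a rho of 0.90 (exact p = 0.00975 and 0.00456), which did not pass over 24 relations (adjusted p = 0.0585 and 0.0548). Without the tumours numbered 3 the r was 0.58. The highest Trem1 levels, 3.69 and 3.42 CPM, were in those tumours, but control tumour 2, with 2.90 CPM, had a hypoxia sum of 754 CPM, below that of propranolol tumour 4 at 1062 CPM and 1.40 CPM of Trem1. With the T cell sum Trem1 had an r of -0.78 and a rho of -0.67 (exact p = 0.0225 and 0.0831; adjusted p = 0.0964 and 0.332). The part of hypoxia or of T cell content in Trem1 was not tested.

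Monocytes and macrophages can also hold Csf3r, Trem1 and S100a9. All 10 macrophage markers are in the table, 9 fitted higher (49.4% of all genes) and 1 lower, with a median log2 fold change of 0.30, and 0 passed. Their sum was 1791 to 2481 CPM in control and 1804 to 3325 CPM in propranolol tumours. Csf3r had an r of 0.78 and a rho of 0.83 with that sum (exact p = 0.0241 and 0.0154, adjusted p = 0.0964 and 0.0738), and Trem1 an r of -0.65 and a rho of -0.40 (exact p = 0.0867 and 0.327, adjusted p = 0.260 and 0.479). Of 10 monocyte markers 9 are in the table, with sums of 2981 to 6231 CPM in control and 4222 to 5441 CPM in propranolol tumours, but Fn1, the fibronectin gene that fibroblasts also express, made up 31.3% to 78.3% of them. With the monocyte sum Csf3r had an r of -0.24, Hdc -0.36, Trem1 0.57 and S100a9 0.19 (exact p = 0.565, 0.385, 0.135 and 0.654). None passed over the 24 relations (adjusted p = 0.677, 0.514, 0.325 and 0.713). Without propranolol tumours 1 and 4 the r was -0.66 for Csf3r and -0.82 for Hdc. Of the 9 monocyte markers, 6 were fitted higher (49.4% of all genes) and 3 lower, with a median log2 fold change of 0.34, and 0 passed. Ly6c2, a gene of inflammatory monocytes, stood at 0.86 (SE 0.86), Plac8 at 0.63 (SE 0.48), Lyz2, the lysozyme gene, at 0.48 (SE 0.35) and Fn1 at -0.11 (SE 0.48). Keratinocytes, which can make S100a9, were represented by 2 of 11 markers, Krt10 at 3.13 to 4.71 CPM and Trp63 at 0.707 to 4.20 CPM. All 8 eosinophil markers lack a row and are not analysed here. The part of these cells in the results was not tested.

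**Figure D3:**
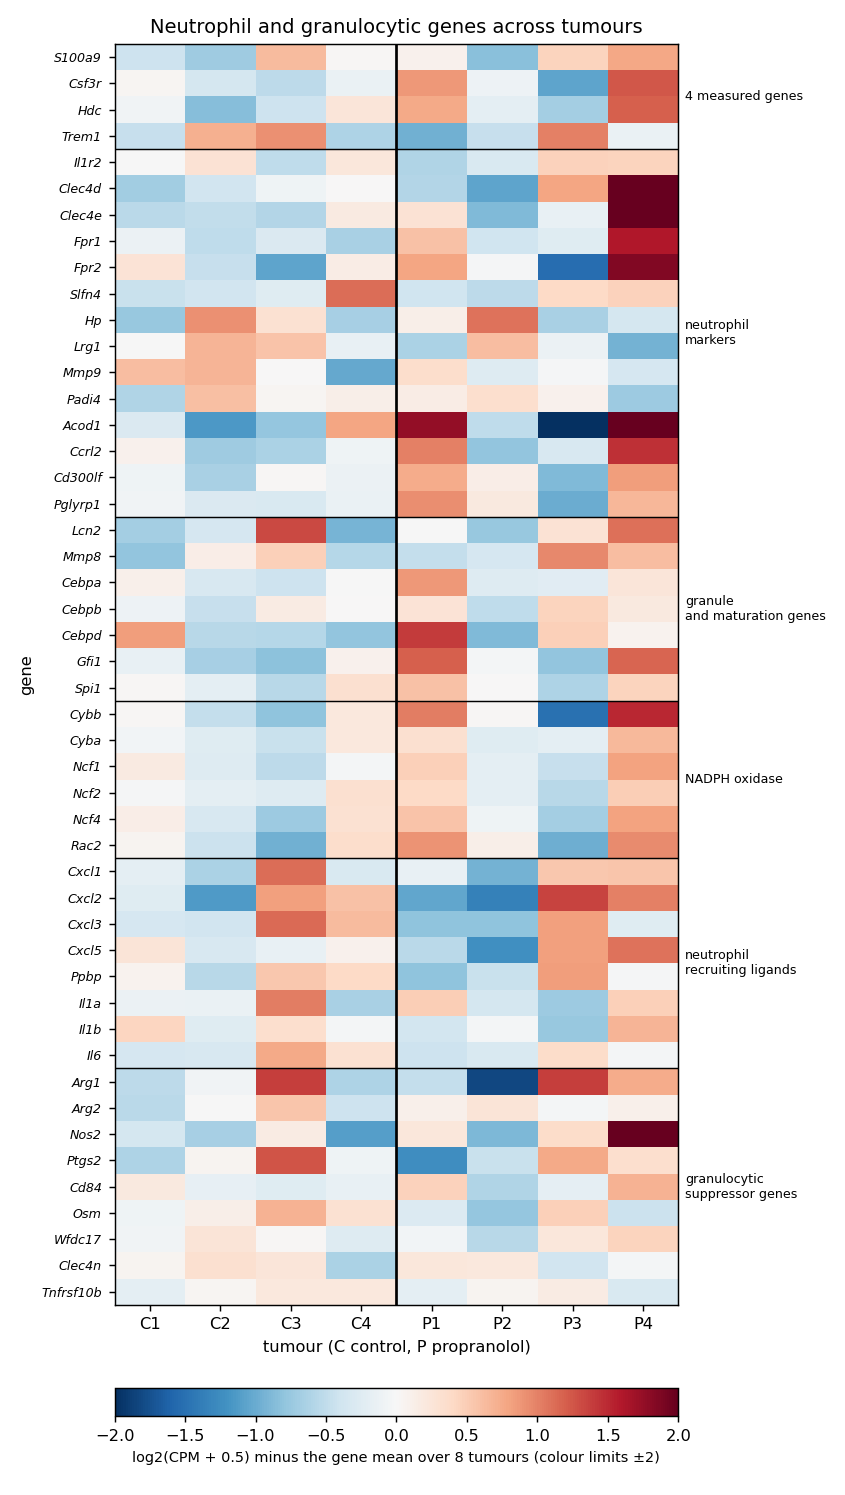
Heat map of the 4 measured genes and of genes from 5 granulocyte-related lists (rows) in the 8 tumours (columns, C control and P propranolol); colour is log2(CPM + 0.5) minus the mean of the gene, cut at ±2. Csf3r, Hdc, Fpr1, Fpr2, Ccrl2 and the 6 NADPH oxidase genes are highest in P4, and Trem1, Cxcl1, Arg1 and Ptgs2 are among the rows that are high in C3 and P3.

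Among the 15 further neutrophil markers, 11 were fitted higher and 4 lower with propranolol, where 49.4% of all genes were higher, 0 passed the threshold, and the median log2 fold change was 0.55. Propranolol tumour 4 held the highest level of 8 of the 15, where it held the highest level of 20.0% of all genes tested. Fpr1, a receptor for formylated bacterial and mitochondrial peptides, was at 1.98 ± 0.408 CPM with PBS and 4.45 ± 3.40 CPM with propranolol (SD, n = 4 each), with a log2 fold change of 1.17 (SE 0.48), and was the 1 gene of the 15 past an unadjusted p of 0.05, as were 1.95% of all genes (5.12% with the tumour number as a block). Clec4e, the pattern receptor Mincle, and Ccrl2, an atypical chemoattractant receptor, stood, as log2 fold changes, at 1.28 (SE 0.68) and 1.02 (SE 0.53). Clec4e reached 20.0 CPM in propranolol tumour 4. Slfn4, a Schlafen family gene of myeloid cells, was highest in control tumour 4 at 114 CPM (log2 fold change -0.12, SE 0.42).

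All 7 granule and maturation genes were fitted higher with propranolol (49.4% of all genes), with a median log2 fold change of 0.39, and 0 passed. Only some of the 7 encode granule proteins, and others, such as Gfi1 and the C/EBP genes, encode transcription factors. Gfi1, a repressor that guides neutrophil differentiation, was at 0.772 ± 0.374 CPM with PBS and 1.94 ± 1.40 CPM with propranolol (log2 fold change 1.33, SE 0.62). Lcn2, which encodes the granule protein lipocalin 2, reached its highest level in control tumour 3, 10.4 CPM, and had means of 4.33 ± 4.05 CPM with PBS and 4.90 ± 2.88 CPM with propranolol (SD, n = 4 each). Cebpa, Cebpb and Cebpd, transcription factors of the C/EBP family, stood, as log2 fold changes, at 0.39 (SE 0.26), 0.22 (SE 0.21) and 0.60 (SE 0.55).

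The NADPH oxidase makes superoxide in neutrophils and macrophages alike. All 6 of its genes were highest in propranolol tumour 4, against 20.0% of all genes. Each was lowest in control tumour 3 or propranolol tumour 3 (3 genes each), against 13.6% and 14.1% of all genes. Their sum was 238 to 430 CPM in control and 232 to 718 CPM in propranolol tumours, 0 of 6 passed, and the median log2 fold change was 0.37. Cybb, the catalytic subunit, was at 76.2 ± 23.7 CPM with PBS and 138 ± 96.8 CPM with propranolol (log2 fold change 0.85, SE 0.58).

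Of the ligands that draw or feed neutrophils, Csf3, Csf2 and Il17a have no row. Of the 7 ligand genes tested, 2 had a higher fitted level (49.4% of all genes) and 5 a lower one. Of them 0 passed, and the median log2 fold change was -0.16. Cxcl1, a ligand of the neutrophil chemokine receptor CXCR2, was at 6.32 ± 4.27 CPM with PBS and 6.08 ± 2.78 CPM with propranolol. Its highest level, 12.7 CPM, was in control tumour 3. Cxcl2 and Cxcl5, further CXCR2 ligands, stood, as log2 fold changes, at 0.33 (SE 0.95) and 0.38 (SE 0.52), and Ppbp, another, -0.21 (SE 0.55). Cxcl3, a close relative of Cxcl2, was at 0 in propranolol tumours 1 and 2 and at most 1.41 CPM elsewhere, and did not pass the filter. The cytokine genes Il1b, Il1a and Il6 stood, as log2 fold changes, at -0.17 (SE 0.30), -0.16 (SE 0.67) and -0.40 (SE 0.52).

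The partner genes of TREM1 and calprotectin are of several kinds. They include the calprotectin receptor gene Tlr4, co-receptors, adaptors, related TREM family genes and genes that act after these. Of the 13 partner genes 12 were fitted higher with propranolol (49.4% of all genes) and 0 passed (median log2 fold change 0.21). Syk, the kinase recruited by DAP12, was at 30.4 ± 3.85 CPM with PBS and 38.2 ± 6.08 CPM with propranolol (log2 fold change 0.33, SE 0.14). It was the 1 gene of the 13 past an unadjusted p of 0.05 in edgeR without the block (1.95% of all genes). With the block 5.12% of all genes were, and the 13 are not given in that fit. Tyrobp itself stood at 0.43 (SE 0.36) and was lowest in control tumour 3, where Trem1 was second highest. Trem2, the related macrophage receptor that shares this adaptor, had 0.29 (SE 0.18). Tlr4 and its co-receptor genes Ly96 and Cd14 had 0.12 (SE 0.12), 0.17 (SE 0.28) and 0.01 (SE 0.11), and their adaptor gene Myd88 -0.00023 (SE 0.21). Ager, which encodes another calprotectin receptor, had 0.21 (SE 0.34), and the inflammasome gene Nlrp3 0.40 (SE 0.28). Plcg2 and Card9, which act after Syk, had 0.36 (SE 0.39) and 0.04 (SE 0.16), and the TREM family genes Treml2 and Treml4 0.12 (SE 0.29) and 0.46 (SE 0.74).

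**Figure D4:**
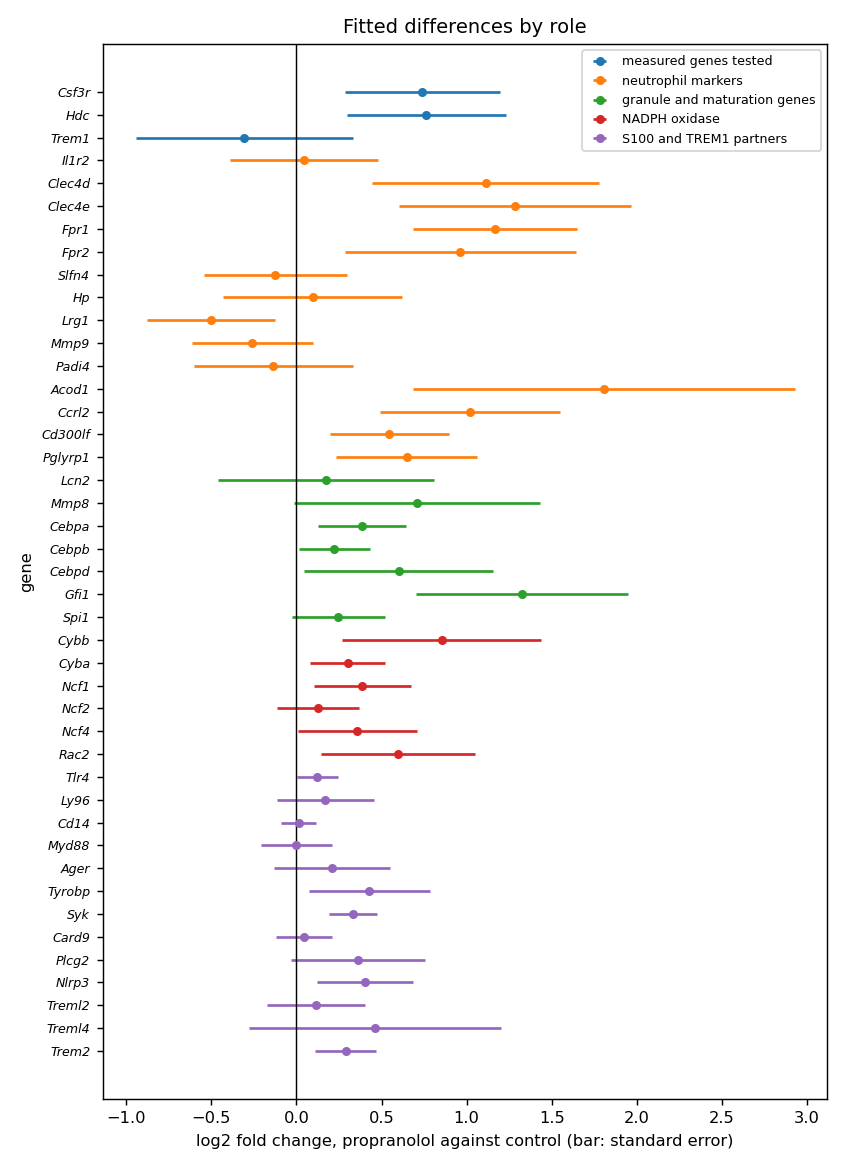
Log2 fold change of propranolol against control (horizontal axis, edgeR) with its standard error for tested genes, coloured by list. Most points lie right of 0, among them Csf3r at 0.74 and Hdc at 0.76, Trem1 lies at -0.31, and 0 genes passed the adjusted threshold.

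Genes used for suppressive granulocytic cells in tumours were not uniform either. Of 9 tested, 5 had a higher fitted level (49.4% of all genes) and 4 a lower one, 0 passed, and the median log2 fold change was 0.06. Arg1, which depletes arginine, was at 39.9 ± 30.5 CPM with PBS and 43.0 ± 34.1 CPM with propranolol, with its highest level, 85.3 CPM, in propranolol tumour 3. Nos2, the inducible nitric oxide synthase, reached 45.4 CPM in propranolol tumour 4 (log2 fold change 1.45, SE 0.69). Ptgs2, which encodes cyclooxygenase 2, reached 219 CPM in control tumour 3 (log2 fold change -0.29, SE 0.53), and Osm, the cytokine oncostatin M, had -0.51 (SE 0.32).

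Histamine is stored, sensed and broken down by other gene products. Slc18a2, the vesicle transporter that loads histamine, was at 7.59 ± 1.73 CPM with PBS and 6.68 ± 1.03 CPM with propranolol (log2 fold change -0.18, SE 0.21). Hrh2, a histamine receptor, stood at 0.49 (SE 0.61) on that scale and Hnmt, which inactivates histamine, at -0.26 (SE 0.42). So 1 of the 3 genes had a higher fitted level (49.4% of all genes), against 2 lower, and 0 passed. Aoc1, Hrh1, Hrh3 and Hrh4 have no row.

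The genes whose log2 CPM was most like that of each gene over the 8 tumours were ranked by Pearson's r among 12297 genes. For Csf3r they were Dnase1l3, Klrc1 and Birc3, each with an r of 0.99. For Hdc they were Trim34b, Herc3 and Herc6, with an r of 0.99, 0.99 and 0.98, and for Trem1 Zfp655, Dcaf5 and Rtn4, with 0.98, 0.98 and 0.97. For S100a9, the gene with the lowest counts, they were Tmem251, Atf3 and Rgs1, with 0.94, 0.94 and 0.91. The genes leading each rank differed in range, from 0.616 to 25.03 CPM for Dnase1l3 and from 50.2 to 69.9 CPM for Zfp655. The mean of Csf3r, Hdc and Trem1 is not a profile that these genes share, since Trem1 had an r of -0.67 with Csf3r and -0.69 with Hdc. The genes most like that mean were Glrx, Rock1, Dcp2, Fnbp4, Nabp1, Hexa, Gpat3, Tent5c, Nampt and Katna1, with an r of 0.95 to 0.97. These values are the highest among many genes over 8 shared libraries and are given as a description.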

How the data were processed

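Bulk RNA sequencing counts of 8 tumours (4 control, 4 propranolol) were used. The deposited table gives, per the file headers, the read count and the FPKM of each gene in each tumour, and the authors' own log2 fold change, p-value and adjusted p-value. Per the submitters' processing notes, which give no roles, the build was GRCm39 and the tools were featureCounts 1.6.2, HISAT2 2.1.0, fastp 0.19.3, edgeR 3.24.3, StringTie 1.3.4d and DESeq2 1.22.1. No source used here says whether counting used strand. In the authors' deposited table the log2 fold changes are 0.74 for Csf3r, 0.77 for Hdc, 0.47 for S100a9 and -0.30 for Trem1.

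Counts were tested over all genes with edgeR's quasi-likelihood test (edgeR 4.0.16, R 4.3.3, TMM, filterByExpr, robust estimates), which left 14006 of 14133 genes and removed 127. CPM values use TMM-scaled library sizes, and log2 CPM a prior count of 2. Exact permutation tests and figures used Python 3.11.15 with numpy and matplotlib. Alternatives were DESeq2 1.42.0, limma-voom (limma 3.58.1), other scalings, no filter, a replicate block and leaving out each tumour. On simulated counts for this comparison over 14006 genes, edgeR called 53 of 100 genes changed 2-fold, 89 of 100 changed 4-fold and 12 unchanged genes. The changed genes were drawn at random from genes with a mean above 1 CPM. The biological coefficient of variation was 0.18 in the median gene, but 0.44 for Csf3r, 0.47 for Hdc and 0.61 for Trem1. These counts therefore do not give the power for the measured genes. No pair of libraries within a group looked like copies (smallest chi-square per degree of freedom 12.7, where copies give about 1 or less). Same-numbered control and propranolol tumours deviated together from their group means (r over genes 0.28, 0.34, 0.60 and 0.33), each above the 0.1 taken here as pairing. This does not settle whether the numbers mark true pairs. The main fit left the number out, and the replicate block was an alternative. The same-numbered tumour was the best match for numbers 2 and 3 and not for 1 and 4, and no label states what a number shares.

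The genes and the 17 other gene lists (185 genes, 125 in the table) were chosen with earlier results of these data known. Named were the 6 genes, Ly6g, Cxcr2, Mpo, Elane, Camp, Ngp, Ltf and Lcn2, and in each other list the 3 genes with the smallest unadjusted p and the 2 with the highest mean CPM. All genes of the ligand, partner and histamine lists were included. So were the 3 genes most like each measured gene and the 10 most like the mean of those tested, by r, where the mean log2 CPM was 1 or more. Not every gene that the rule picks in the lists is printed, and some items are not reported here. Kit and Fcer1a are named for their relation with Hdc. Other genes without a row and Fpr2, as well as the relations with marker sums, were chosen after their values were seen.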

Additional observations from a re-analysis of the deposited data

How the results depend on the processing

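The count of genes past the threshold was 0 and the count of the measured genes past it was 0 under all 7 other settings and with any 1 of the 8 tumours left out. Genes at an unadjusted p under 0.05 numbered 273, 717 with the replicate block and 337 with DESeq2, and 134 to 1017 with 1 tumour left out (lowest without propranolol tumour 1, highest without propranolol tumour 3). The block gave log2 fold changes of 0.52 for Csf3r, 0.64 for Hdc, -0.37 for Trem1 and 0.48 for S100a9 and changed no call. Leaving out 1 tumour gave 0.35 to 1.03 for Csf3r, 0.35 to 1.03 for Hdc, 0.02 to 1.16 for S100a9 and -1.05 to 0.06 for Trem1, which reversed to 0.0617 without control tumour 3; the cause was not tested. For Trem1 the values without propranolol tumours 1, 2 and 4 and control tumours 1, 2 and 4 were -0.02, -0.13, -0.23, -0.52, -0.09 and -0.56. The smallest adjusted p over the alternatives was 0.641 for Csf3r, 0.676 for Hdc, 0.778 for Trem1 and 0.941 for S100a9. The other scalings moved the median over all genes by 0.0028 and 0.0021. In the exact tests, a prior count of 0.5 or log2(FPKM + 1) turned no sign and gave no p under 0.05. The relation of Csf3r and Hdc kept an r of 0.92 to 0.94 under these units and 0.92 without propranolol tumour 3, while that of S100a9 and Csf3r moved from 0.17 to 0.43 without it. Without that tumour the relations of the T cell sum with Csf3r and Hdc had an r of 0.98 and 0.91. S100a9 had 1 to 20 counts and Trem1 10 to 60 counts per tumour.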
